A study of Homo sapiens with 4 samples.

Results

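The genes described here encode carriers that move amino acids across the plasma membrane and, for a few of them, across the lysosomal membrane. They are the genes whose array row was assigned to exactly 1 symbol beginning with SLC1A, SLC3A, SLC7A, SLC36A, SLC38A or SLC43A, SLC standing for solute carrier. The rule found 41 genes on 43 array rows, out of 18417 genes with a row of their own, and each gene was represented by its row of highest mean value. SLC7A6OS met the rule by its name alone, since it is named for lying opposite SLC7A6 and is not a transporter, and it is kept apart below. SLC38A9, SLC38A7, SLC36A1 and SLC7A14 are known mainly from lysosomes, so the plasma membrane label is not exact for them.

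Expression was measured in AGS cells, an established line of human gastric carcinoma. Treated cells received 0.01% ornithogalum, a homeopathic formulation, for 36 h, and control cells received ethanol, its vehicle, for the same time. Each group has 2 arrays, labelled as biological replicates 1 and 2, and all cells grew in DMEM-F12 medium with serum before treatment. The values are deposited log2 expression values on Affymetrix Human Gene 1.0 ST arrays, on which a row summarises the probes of 1 transcript locus.

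Amino acid carriers differ in what drives them and in what they carry. Exchangers of the SLC7 family swap amino acids across the membrane, and several of them reach the surface only when bound to the heavy chain SLC3A2 (CD98) or SLC3A1. Several SLC1 and SLC38 carriers use the sodium gradient to concentrate glutamate, or glutamine and other neutral amino acids. SLC1A4 and SLC1A5 exchange neutral amino acids. Some SLC36 carriers use protons, and SLC43A1 and SLC43A2 let large neutral amino acids pass down their gradient. In carcinoma cells glutamine uptake through SLC1A5, leucine uptake through SLC7A5 and cystine uptake through SLC7A11, which feeds glutathione synthesis, are the best known of these functions.

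Of the 41 genes, 2 rose and 8 fell in ornithogalum-treated cells, and 31 did not pass the test. SLC38A2, a sodium-coupled carrier of small neutral amino acids including glutamine, rose 3.89-fold, and the heavy chain gene SLC3A2 rose 2.27-fold. SLC7A11, the cystine and glutamate exchanger, fell 4.35-fold, and SLC1A5, the glutamine exchanger, fell 3.25-fold. The other falls were in SLC7A8, SLC7A7, SLC38A9, SLC43A2, SLC38A6 and SLC38A10. Each comparison was made with limma over 21214 array rows at a Benjamini-Hochberg adjusted p of 0.05. In that test 19.2% of all rows passed, 6.57% higher and 12.6% lower. Among the members 24.4% passed, 4.88% higher and 19.5% lower, so the share that rose was below the share over all rows and the share that fell was above it, and neither difference was tested. The labels do not say whether the replicates came from separate experiments, so these p-values measure only the spread between these samples. In cell culture RNA, fewer cells expressing a gene and less of its RNA per cell cannot be told apart.

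**Figure D1:**
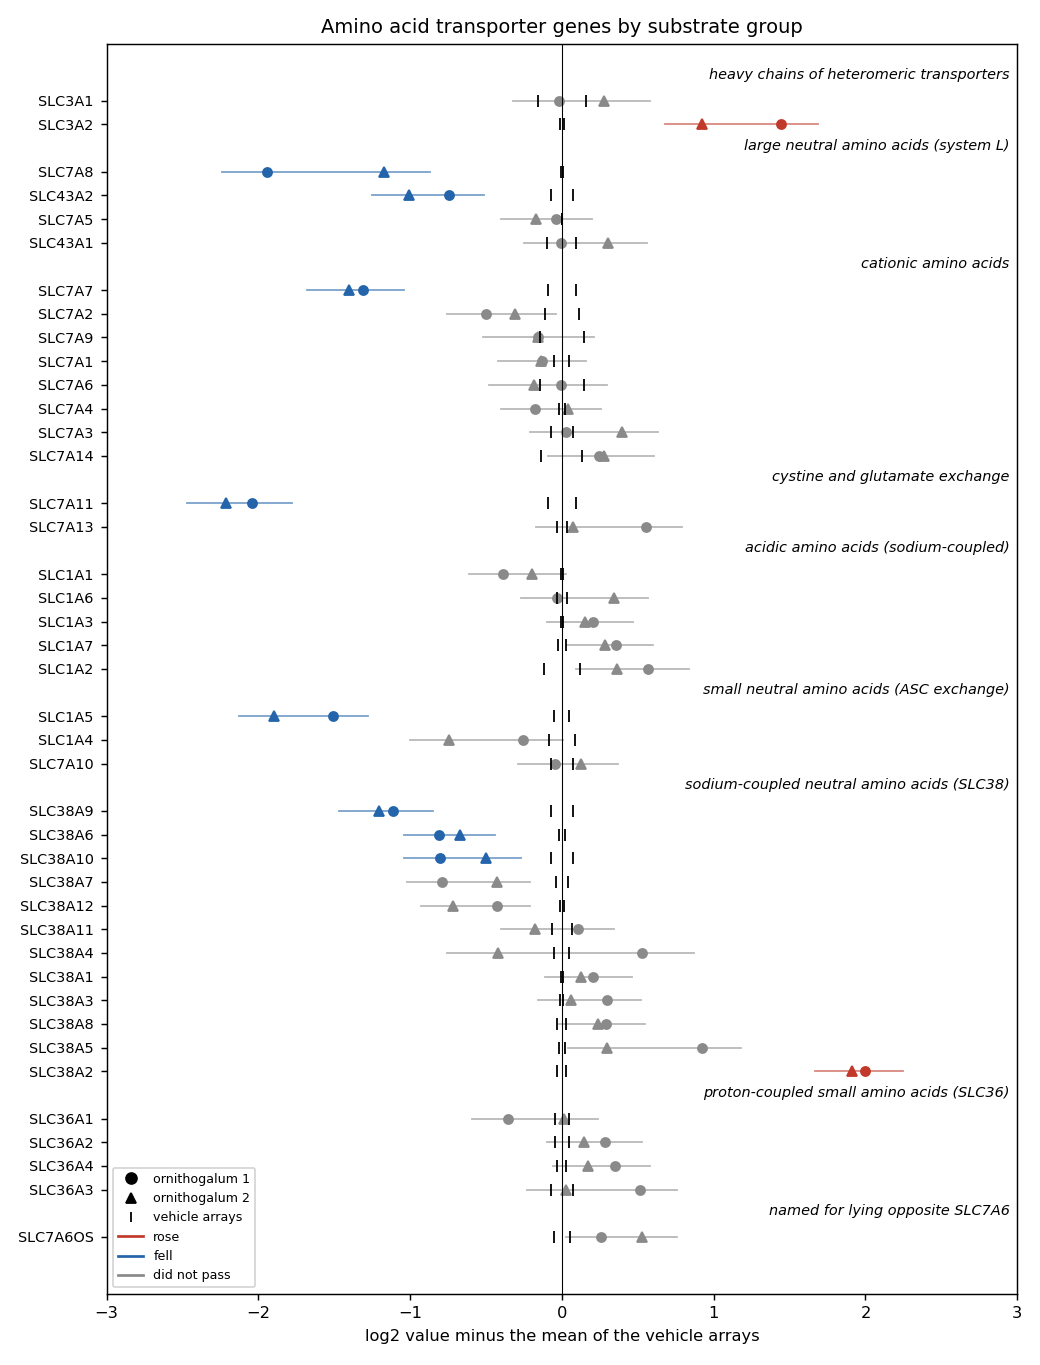
Difference of each array from the mean of the vehicle arrays, on the log2 scale, for the 41 genes by substrate group. Circles and triangles are the ornithogalum arrays, vertical ticks the vehicle arrays and lines limma's 95% intervals of the group difference. The differences run from -2.12 for SLC7A11 to 1.96 for SLC38A2, and most grey genes lie close to 0.

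The RefSeq table of promoter windows held 33 of the 41 genes. SLC7A11 was not among the matched genes. The windows below cover the 250 bases before an annotated start, in build GRCh38.p14, and are shown because they belong to the genes that rose and to a binding partner of SLC3A2 that fell. SLC38A2 has a single start in the table, at chr12:46372774-46373023 on the minus strand. SLC3A2 has 3, of which the one at chr11:62881449-62881698 on the plus strand is shown, and SLC7A7 has 3, of which chr14:22819792-22820041 on the minus strand is shown. For both genes the window shown was chosen because it is the only one of the 3 with the letters marked below. Capitals mark letters that match TGACNNNGC, the core of the antioxidant response element, on either strand.
SLC38A2: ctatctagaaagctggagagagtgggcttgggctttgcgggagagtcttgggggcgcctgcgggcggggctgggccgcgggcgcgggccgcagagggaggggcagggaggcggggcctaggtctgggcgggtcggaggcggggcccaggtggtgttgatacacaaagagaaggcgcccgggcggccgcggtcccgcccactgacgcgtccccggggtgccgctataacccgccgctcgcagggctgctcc
SLC3A2: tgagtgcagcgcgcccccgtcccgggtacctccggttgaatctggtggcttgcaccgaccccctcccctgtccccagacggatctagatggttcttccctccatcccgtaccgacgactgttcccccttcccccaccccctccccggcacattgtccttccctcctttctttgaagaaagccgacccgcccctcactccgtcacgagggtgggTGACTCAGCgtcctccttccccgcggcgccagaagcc
SLC7A7: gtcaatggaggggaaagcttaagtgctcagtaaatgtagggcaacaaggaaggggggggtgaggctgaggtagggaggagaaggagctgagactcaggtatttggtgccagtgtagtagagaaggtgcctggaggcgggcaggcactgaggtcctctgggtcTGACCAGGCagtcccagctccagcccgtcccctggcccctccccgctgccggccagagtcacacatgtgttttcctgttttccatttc

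The 3 windows were searched on both strands for TGATGNAA (core of the amino acid response element bound by ATF4), TGACNNNGC and CACGTG (the E-box bound by MYC), and no matches in them overlap. The SLC38A2 window held none of them. The SLC3A2 window held TGACTCAGC, whose first base is 37 bases before the start, and the SLC7A7 window held TGACCAGGC, whose first base is 88 bases before the start. Of the genes that passed, SLC1A5, which fell, also held this core in 1 of its 3 windows. Over the 55 windows of the matched members, TGACNNNGC was present in 6 (10.9%), where it is present in 10.9% of all 35116 windows of the same length. TGATGNAA was present in 2 of the 55 (3.64%, against 3.14% of all windows), and CACGTG in 8 (14.5%, against 6.34%). No difference between these shares was tested, and some genes have more than 1 window. Of the genes that passed the test, SLC1A5 had TGATGNAA in a window, and SLC1A5, SLC7A7 and SLC7A8 had CACGTG. A match describes letters and does not show that a factor binds there.

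Heavy chains come first because several other members depend on them for transport to the membrane. SLC3A2 read 9.02 and 8.50 with ornithogalum against 7.56 and 7.59 with vehicle, in the order of the replicate numbers. Both treated arrays lay above both vehicle arrays, by at least 0.91, although the treated arrays differed from each other more than the vehicle arrays did. The mean went from 7.57 ± 0.018 to 8.76 ± 0.37 (SD, n = 2 per group), a log2 difference of 1.18 (SE 0.20, limma adjusted p = 0.0169). The adjusted p was 0.0505 when all 33297 rows of the table, named or not, were tested together. SLC3A1, the heavy chain known from cystine uptake in kidney and gut, was dim, with values from 2.55 to 2.99 that overlapped between groups and a difference of 0.13 (95% interval -0.32 to 0.58).

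SLC3A2 pairs with 6 light chains among the members, and none of the 6 rose. SLC7A11, SLC7A8 and SLC7A7 fell, while SLC7A5, SLC7A6 and SLC7A10 did not pass. All 6 were brighter than the median row, and 31% of such rows passed over the whole array. SLC7A5, the leucine exchanger, read 6.90 and 6.77 with ornithogalum against 6.94 on both vehicle arrays, a difference of -0.10 with a 95% interval from -0.40 to 0.20. SLC7A6, which exchanges cationic for neutral amino acids, differed by -0.09 (-0.48 to 0.30). SLC7A10, a carrier of small neutral amino acids and D-serine, differed by 0.04 (-0.29 to 0.37). For these 3 genes the interval leaves out a change as large as that of SLC3A2, but it does not show that they were unchanged.

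**Figure D2:**
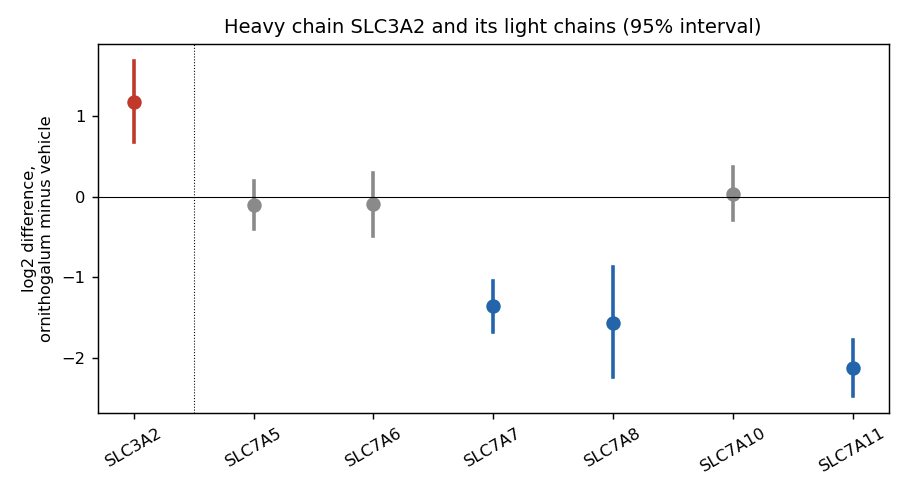
Log2 difference between ornithogalum and vehicle for the heavy chain SLC3A2 and the 6 light chains it pairs with, with limma's 95% interval. SLC3A2 lies at 1.18, SLC7A7, SLC7A8 and SLC7A11 lie at -1.36, -1.56 and -2.12, and the intervals of the other light chains include 0.

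SLC7A11, the light chain of the cystine and glutamate exchanger, had the largest fall among the members. It read 4.42 and 4.25 with ornithogalum and 6.37 and 6.55 with vehicle. The groups were 1.95 apart at their closest, far more than either pair of replicates differed. The log2 difference was -2.12 (SE 0.13, limma adjusted p = 0.00336), from 6.46 ± 0.13 to 4.33 ± 0.12 (SD, n = 2). SLC7A13, an aspartate and glutamate exchanger known from kidney, was dim, at 2.20 and 1.72 against 1.61 and 1.68, and did not pass (0.31, -0.17 to 0.79).

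Carriers of large neutral amino acids, the system L group, fell in 2 of 4 genes and rose in 0, with a median log2 difference of -0.49. All 4 were brighter than the median row, and 31% of such rows passed over the whole array. SLC7A8 exchanges large and small neutral amino acids. It read 4.58 and 5.35 with ornithogalum and 6.52 and 6.53 with vehicle. Both treated arrays were low, but they stood further apart than the replicates of any other gene that passed (SD 0.55). Its difference of -1.56 (SE 0.27, limma adjusted p = 0.0187) became -1.95 without ornithogalum replicate 2 and -1.17 without replicate 1, and with all rows tested its adjusted p was 0.0543. SLC43A2, a facilitated carrier, read 5.72 and 5.46 against 6.39 and 6.54, with no overlap, and fell 1.84-fold (-0.88, SE 0.14, limma adjusted p = 0.0165). SLC43A1, its close relative, read 4.99 and 5.30 against 5.09 and 4.90, with overlapping groups (0.15, -0.25 to 0.56).

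Among 8 genes for cationic amino acids 1 fell (12.5%, against 12.6% of all rows) and 0 rose. The group median of -0.11 turned to 0.05 after centring each array on its median. SLC7A7, the exchanger whose loss causes lysinuric protein intolerance, read 6.45 and 6.36 with ornithogalum and 7.67 and 7.85 with vehicle. The groups were at least 1.22 apart, and the gene fell 2.56-fold (-1.36, SE 0.13, limma adjusted p = 0.00449). SLC7A1, the widely expressed arginine and lysine carrier, read 6.58 and 6.57 against 6.66 and 6.76, a difference of -0.13 with a 95% interval from -0.42 to 0.16. SLC7A2, an inducible arginine carrier, read 2.97 and 3.16 against 3.36 and 3.58 and did not pass (-0.40, limma adjusted p = 0.12). SLC7A3, SLC7A4, SLC7A9 and SLC7A14 read between 2.64 and 4.32 on all arrays, with differences from -0.15 to 0.26 that did not pass. SLC7A9 is a light chain that pairs with SLC3A1.

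Carriers of small neutral amino acids by exchange fell in 1 of 3 genes (33.3%, against 12.6% of all rows). SLC1A5 read 6.51 and 6.12 with ornithogalum and 7.97 and 8.07 with vehicle, so that all treated values were at least 1.46 lower. The difference was -1.70 (SE 0.17, limma adjusted p = 0.00489). A second, dimmer row assigned to SLC1A5 read 4.52 and 4.35 against 4.40 and 4.33 and did not differ beyond its spread (0.08, limma adjusted p = 0.697). The rows of this gene thus disagree, and the mean of both gave a difference of -0.81. SLC1A4, which carries alanine, serine and cysteine, read 3.49 and 3.0 against 3.66 and 3.83 and did not pass (-0.50, limma adjusted p = 0.152). SLC7A10, given above with the light chains, is the remaining gene of this group.

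None of the 5 sodium-coupled carriers of glutamate and aspartate passed with limma (19.2% of all rows did), and their median difference was 0.18. At an unadjusted p of 0.05, 2 of them were higher, SLC1A2 (95% interval 0.09 to 0.84) and SLC1A7 (0.03 to 0.60). SLC1A2, the main glutamate carrier of astrocytes, read 3.03 and 2.82 against 2.34 and 2.58 (0.47, limma adjusted p = 0.0921). SLC1A3, also best known from glia, read 5.70 and 5.65 against 5.50 and 5.49 (0.18, limma adjusted p = 0.308). SLC1A1, the epithelial and neuronal form, read 2.15 and 2.34 against 2.54 and 2.53, and SLC1A6 and SLC1A7 lay between 3.17 and 3.57.

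The SLC38 family of sodium-coupled neutral amino acid carriers has 12 genes here, of which 1 rose and 3 fell. These are 8.33% and 25%, against 6.57% higher and 12.6% lower over all rows. SLC38A2, known to be induced when amino acids are scarce and in hypertonic medium, read 10.23 and 10.14 with ornithogalum and 8.26 and 8.20 with vehicle. The groups were at least 1.88 apart, with close replicates on both sides. The mean went from 8.23 ± 0.043 to 10.19 ± 0.069 (SD, n = 2), a log2 difference of 1.96 (SE 0.11, limma adjusted p = 0.00336).

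SLC38A2 lies between SLC38A1 and SLC38A4 on chromosome 12, with 0 protein-coding genes between neighbours in the RefSeq table, and neither neighbour passed. SLC38A1, a glutamine carrier, read 9.12 and 9.04 against 8.92 and 8.91, a difference of 0.17 with a 95% interval from -0.11 to 0.46. SLC38A4 read 3.19 and 2.24 against 2.61 and 2.71, so its treated arrays lay on either side of the vehicle arrays.

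SLC38A9, a lysosomal protein through which arginine is sensed by the growth kinase complex mTORC1, fell 2.24-fold. It read 5.38 and 5.29 with ornithogalum and 6.57 and 6.42 with vehicle, with a gap of at least 1.04 (-1.16, SE 0.12, limma adjusted p = 0.00559). SLC38A6 read 4.57 and 4.71 against 5.36 and 5.40 and fell 1.67-fold (-0.74, limma adjusted p = 0.0154). SLC38A10 read 4.84 and 5.14 against 5.71 and 5.57 and fell 1.57-fold (-0.65, limma adjusted p = 0.0416). Of the genes that passed, SLC38A10 was nearest to the threshold, and its adjusted p was 0.0586 after median centring and 0.0505 after quantile normalization.

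Just outside the threshold were SLC38A12 (4.53 and 4.24 against 4.97 and 4.94, limma adjusted p = 0.0502) and SLC38A7, a lysosomal glutamine carrier (3.88 and 4.24 against 4.63 and 4.71, limma adjusted p = 0.0559). Neither of these overlapped between groups. SLC38A5, a carrier of glutamine and serine, read 4.17 and 3.55 against 3.23 and 3.27 (0.61, limma adjusted p = 0.127), so that its treated arrays were above the vehicle arrays but far from each other. SLC38A3, SLC38A8 and SLC38A11 differed by 0.18, 0.26 and -0.03 and did not pass. The family's median difference of 0.01 was positive or negative depending on the scaling, 0.17 after median centring and -0.18 after quantile normalization.

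None of the 4 SLC36 genes, grouped here as proton-coupled by family, passed with limma (19.2% of all rows did), and 0 did at an unadjusted p of 0.05. SLC36A1, which exports small amino acids from lysosomes and takes them up in the gut, read 5.14 and 5.51 against 5.45 and 5.54, with overlapping groups. SLC36A2, SLC36A3 and SLC36A4 were dim, between 1.76 and 3.12, with differences of 0.22, 0.27 and 0.26. SLC7A6OS, which is no carrier, read 5.51 and 5.78 against 5.31 and 5.20 (0.39, limma adjusted p = 0.124). It passed as higher after median centring, quantile normalization and cyclic loess, and when only the brighter rows were tested.

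**Figure D3:**
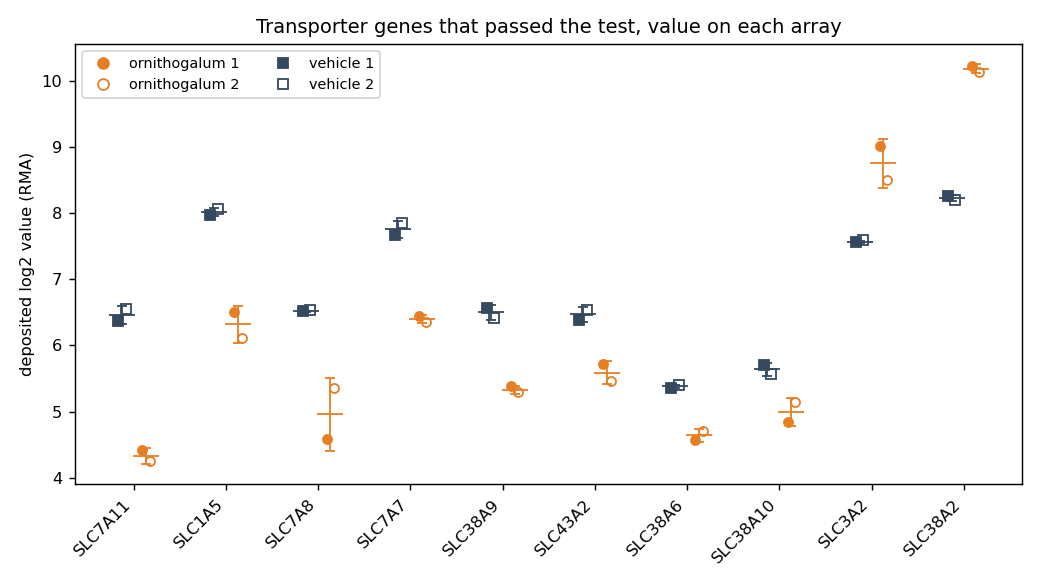
Deposited log2 value on each array for the 10 genes that passed the test, ordered by their difference, with group means and SD (n = 2 per group). Ornithogalum and vehicle arrays do not overlap for any of the 10 genes, and the closest approach is 0.43 for SLC38A10. The 10 genes were picked by the test on these same arrays, so the separation is no further evidence. Over all rows, 62.2% do not overlap.

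All 10 genes that passed were among the 20 members brighter than the median row, and 0 of the 21 dimmer members passed. Over all rows the corresponding shares were 31% of the brighter and 7.44% of the dimmer rows, against 50% of the brighter members. The arrays of the groups did not overlap for 30 of the 41 members (73.2%), where 62.2% of all rows did not overlap. The member median was a log2 difference of 0.04, against 0.035 over all rows. By family, 3 of 13 SLC7 genes, 1 of 7 SLC1 genes, 1 of 2 SLC43 genes and 3 of 12 SLC38 genes fell. The rises were 1 of 12 SLC38 genes and 1 of 2 SLC3 genes. Over all rows 12.6% fell and 6.57% rose, and no family or substrate group was tested against these shares.

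The calls did not hold when a vehicle array was left out. Without vehicle replicate 1 or vehicle replicate 2 limma called 0 members and 0 of all rows, and the 10 genes then had adjusted p-values from 0.0605 to 0.273. In these fits the lone vehicle array is assumed to vary like the ornithogalum pair. In them 2 and 3 members were higher and 8 and 8 lower at an unadjusted p of 0.05. Without ornithogalum replicate 2, 7 members were called higher and 10 lower, among 7058 rows called. That fit has 1 treated array, which is assumed to vary like the closely agreeing vehicle pair, so its calls are not counted as rises or falls. Array medians over all tested rows were 4.48 and 4.62 with ornithogalum against 4.71 and 4.70 with vehicle, and centring each array on its median moved the median difference from 0.035 to 0.195. Replicates differed more with ornithogalum (SD 0.258) than with vehicle (SD 0.140). The epithelial markers KRT8, KRT18 and EPCAM read between 9.34 and 10.59 on all arrays. Of the other epithelial markers KRT19 fell 2.63-fold, and CDH1 read from 5.57 to 6.13 and did not pass (-0.33, limma adjusted p = 0.216). Of 6 gastric markers MUC1 (5.69-fold) and TFF1 (1.51-fold) fell and 0 rose, and the defining gastric markers GKN1 (1.62 to 2.01) and CLDN18 (3.31 to 3.65) were dim. Of 17 fibroblast, leukocyte and endothelial markers, PDGFRA (2.08-fold) and CD68 (2.26-fold) rose and 0 fell, and their part in the transporter results was not tested.

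Genes that work on the same amino acids were taken from lists drawn up with earlier results of these data known, so their counts are a description, and without either vehicle array limma called 0 genes in each list. Other amino acid and peptide carriers, from the SLC6, SLC15, SLC16, SLC17, SLC32 and SLC66 families with the cystine exporter CTNS, had 0 rises and 1 fall among 22 measured. The gene that fell was CTNS, at 3.83 and 4.06 against 4.63 and 4.49 (1.53-fold, limma adjusted p = 0.039), but 0 passed without ornithogalum replicate 1, and 5 were called higher and 3 lower without ornithogalum replicate 2. Among 15 genes of glutathione and cystine use 0 rose and 3 fell, a share of 20% that is close to the 19.2% of all rows. The genes that fell were the glutathione synthetase gene GSS (2.09-fold), GGCT (2.02-fold) and the glutathione reductase gene GSR (1.44-fold). The list's median of -0.20 turned to 0.10 without ornithogalum replicate 1, and 6 genes were called lower without replicate 2. GCLC, which catalyses the rate-limiting step of glutathione synthesis, was chosen after its value was seen and did not pass (-0.04, limma adjusted p = 0.875).

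Glutamine and glutamate metabolism had 2 rises and 4 falls among 18 measured genes. The falls were CTPS2 (2.61-fold), PSAT1, a serine synthesis enzyme that uses glutamate (2.40-fold), GMPS (1.88-fold) and the asparagine synthetase gene ASNS (1.70-fold), and the rises were the aspartate aminotransferase gene GOT1 (1.87-fold) and PPAT (1.72-fold). Without ornithogalum replicate 2, 7 genes of this list were called lower. ASNS read 5.20 and 5.21 against 5.90 and 6.04. With SLC7A11, which fell, and SLC3A2, which rose, it is among the known targets of the stress factor ATF4. These 3 were set side by side after their values were seen and are only part of its targets. Of other known targets, SLC38A2, ATF3, DDIT3 and SESN2 rose, PSAT1 fell, and TRIB3 and CHAC1 did not pass. The direction of ATF4 targets as a set was not tested. In the list for breakdown of branched-chain amino acids, which are substrates of system L, 11 of 21 genes fell and 0 rose, with a median of -0.66. The list includes a regulator, the kinase gene BCKDK, and breakdown itself was not measured. ALDH6A1, of the valine pathway, fell 4.12-fold, BCKDHB, a subunit of the branched-chain ketoacid dehydrogenase, 2.85-fold, its kinase gene BCKDK 2.84-fold, ACAD8 1.90-fold and HIBADH 1.77-fold. After median centring 9 genes of the list fell and 1 rose.

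Genes of amino acid sensing upstream of mTORC1, the complex to which SLC38A9 reports arginine, went both ways. Of 34 measured, 8 rose and 7 fell, with a median of -0.07 that turned to 0.09 after median centring. SESN1 and SESN2, which restrain mTORC1 when leucine is low, rose 2.60-fold and 1.87-fold, as did the Rag GTPase gene RRAGC (2.34-fold) and FNIP1 (2.25-fold). LARS1, the leucyl-tRNA synthetase gene, fell 2.03-fold.

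Factors known to act on transporter genes rose in 7 of 18 and fell in 1. The gene that fell was MYCN, a dim row at 3.66 and 3.94 against 4.42 and 4.47 (1.56-fold, limma adjusted p = 0.0358). The osmotic stress factor NFAT5 read 8.95 and 8.91 against 7.0 and 6.99 and rose 3.82-fold. ATF3 rose 2.83-fold, DDIT3 2.96-fold, MYC 2.36-fold and TFE3 2.14-fold. ATF4 itself, chosen after its value was seen, read 7.88 and 7.94 against 7.64 and 7.63 and did not pass (0.27, limma adjusted p = 0.161), and NFE2L2, a known activator of SLC7A11 chosen in the same way, did not pass either (0.36, limma adjusted p = 0.0952). BACH1, which represses antioxidant genes, rose 1.62-fold.

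Genes for the turnover of surface transporters rose in 6 of 18 and fell in 2. NEDD4L, a ubiquitin ligase that marks membrane carriers and channels for removal, read 7.85 and 8.0 against 6.04 and 6.12 and rose 3.59-fold. The arrestin-domain genes ARRDC3 (8.36-fold), ARRDC4 (3.92-fold) and TXNIP (2.20-fold), which link such ligases to their cargo or act on nutrient carriers, also rose. MARCHF8, a membrane ubiquitin ligase, fell 3.96-fold, from 5.35 and 5.65 to 3.54 and 3.49. Set against the 19.2% of all rows, the shares that passed were 4.55% of the other carriers, 20% of glutathione and cystine use, 33.3% of glutamine and glutamate metabolism and 52.4% of branched-chain amino acid breakdown. They were 44.1% of the sensing genes and 44.4% each of the factors and the turnover genes. Over all rows 31% of the brighter and 7.44% of the dimmer rows passed, and the lists differ in brightness. Brighter than the median row were 5 of 22 other carriers, 9 of 15 glutathione genes, 16 of 18 glutamine genes, 18 of 21 branched-chain genes, 28 of 34 sensing genes, 14 of 18 factors and 15 of 18 turnover genes. The part of brightness in the shares was not tested.

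**Figure D4:**
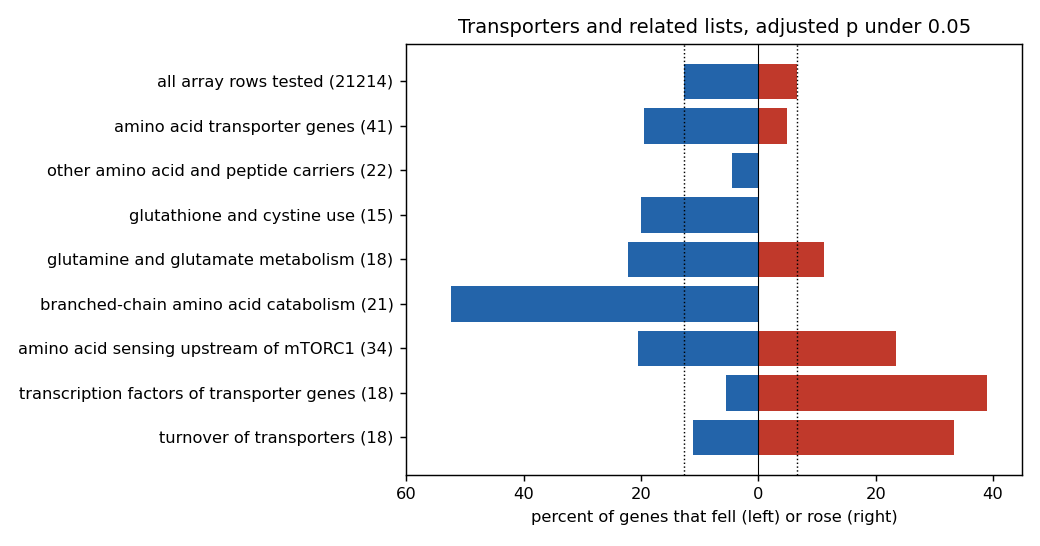
Percent of genes that fell (bars to the left) or rose (bars to the right) at a limma adjusted p of 0.05, for all rows, the amino acid transporters and the related lists, with the number measured in brackets. Dotted lines mark the shares over all rows, 12.6% lower and 6.57% higher. The bar for branched-chain amino acid catabolism reaches 11 of 21 genes lower, and that for the other carriers 1 of 22.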

How the data were processed

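RNA of AGS cells was measured on 4 arrays, 2 with ornithogalum and 2 with vehicle. The deposited log2 values come from the authors. The submitters' processing notes name RMA and Affymetrix Expression Console 1.1, without further settings. Of 33297 rows, 19460 had 1 symbol in the platform annotation, 1754 several and 12083 none. Symbols were updated through gene numbers.

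The comparison used limma 3.58.1 under R 4.3.3, by lmFit and then eBayes without a trend, over the 21214 named rows, two-sided, with Benjamini-Hochberg adjustment at 0.05. Intervals are 95%, from limma's moderated SE. No dim row was removed. Precision is limited by having 2 arrays per group. The fit was tested on simulated data. The members and lists were chosen with earlier results of these data known. SLC38A12 and SLC7A6OS, found by the rule, had no substrate group at first and were assigned afterwards. Every member is named. From each related list genes past the threshold are named, up to 5 by smallest p. Markers, PPAT, BACH1, MYCN, ATF4, NFE2L2 and GCLC were chosen after their values were seen. So was the grouping of ASNS, SLC7A11, SLC3A2 and the genes set beside them as ATF4 targets. Alternatives tried were a block for replicate number, single arrays left out, other scalings, row sets, priors, weights, thresholds and row choices.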

Additional observations from a re-analysis of the deposited data

How the results depend on the processing

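Over 18 other settings the 10 genes that passed gave 180 values, of which 0 changed direction, 148 also passed and 32 did not. Settings that changed only the block, rows tested, prior or threshold kept the same difference, so no direction could change in them. The threshold of 0.1 and the member list without SLC38A12 and SLC7A6OS reuse the main fit, so all 10 genes had to pass there. SLC38A2, SLC7A11, SLC1A5, SLC7A7 and SLC38A9 failed only without a vehicle array. The number of members higher was 2 with all arrays and 0 to 7 when an array was left out, the number lower was 8 and 0 to 10, and the median difference of 0.04 ranged from -0.03 to 0.05. With all rows of the table tested, 1 member was higher and 6 lower, SLC3A2, SLC7A8 and SLC38A10 being lost. At a threshold of 0.01, 1 was higher and 4 lower. The median was -0.02 after quantile normalization, 0.20 after median centring, -0.03 after cyclic loess and -0.15 over brighter rows only, which hold 20 members. With the replicate number as a block, 2 members were higher and 7 lower, SLC38A10 being lost (limma adjusted p = 0.0658), and 3302 rows were called in place of 4076. Same-numbered arrays did not deviate together (r = -0.06 across rows), so the numbers are not taken to pair them. Over all rows, median centring gave 2238 higher and 1898 lower against 1393 and 2683. Leaving out SLC38A12 and SLC7A6OS, a setting chosen after seeing the data, left 2 higher and 8 lower of 39. Dim rows limit what can be seen, since 21 members lay below the median brightness.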

Other observations

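A row shared by SLC43A3, a nucleobase carrier of the SLC43 family, and PRG2 was left out of the members because it names several genes. It read 3.10 and 3.22 on the ornithogalum arrays and 2.94 on both vehicle arrays, and it did not pass (log2 difference 0.22, limma adjusted p = 0.26). A second, dimmer row of SLC7A14 read 2.40 and 2.90 against 2.66 and 2.63.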
